A study of Mus musculus with 9 samples.

Results

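The 10 genes described here encode the classic heat shock chaperones: Hspa1a, Hspa1b, Hspa8, Hspb1, Hspb8, Hsp90aa1, Hsp90ab1, Dnajb1, Hsph1 and Hspd1. They were chosen by name, and their levels were read from FPKM files of mouse kidney (fragments of a gene per kilobase of its transcript, scaled by the fragment total of the library). Each of the 10 matched 1 of the 55385 Ensembl gene IDs in the files. All of them reached at least 1 FPKM in all 9 libraries, so none was lost to the filter on low values that left 13718 genes for testing. The kidneys were those of C57BL/6 mice, with 3 biological repeats in each of 3 groups. The groups are day 7 after a single intraperitoneal injection of cisplatin at 20 mg/kg, day 3 after the same injection, and a sham group that received an equal volume of saline. In the labels, the injected groups thus differ from each other in time alone, and the sham group has no time. Whole kidney tissue was sequenced, so in these bulk samples fewer cells of a type and less RNA per cell cannot be told apart.

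Molecular chaperones bind proteins that have lost or not yet reached their fold. Hsp70 proteins (Hspa1a, Hspa1b and Hspa8) hold and release such chains with ATP, J proteins such as Dnajb1 deliver the chains to them, and Hsph1 exchanges their nucleotide. Hsp90 proteins finish the folding of kinases and steroid receptors, small heat shock proteins such as Hspb1 and Hspb8 keep unfolded chains from clumping, and Hspd1 forms the folding chamber of the mitochondrial matrix. Hspa8 and Hsp90ab1 are made at all times in most cells, while Hspa1a, Hspa1b, Hsp90aa1, Hspb1, Dnajb1 and Hsph1 are known targets of heat shock factor 1, the factor that is released when unfolded proteins draw chaperones away from it. In the kidney, these genes are known to respond to ischemia and to nephrotoxic drugs. Cisplatin, a platinum drug given against tumours, binds DNA and damages tubule cells.

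The factor binds heat shock elements, which are inverted repeats of the letters GAA. The sequences below show where such letters lie before members whose levels are described next. Promoter windows from RefSeq on GRCm38.p6 (the 250 bases before an annotated start) were at hand for 7 members: Hspa1a, Hspa1b, Hspb1, Hspb8, Dnajb1, Hsph1 and Hspd1. The windows were searched on both strands for the pair of repeats GAANNTTC or TTCNNGAA, which can overlap each other. Some genes have more than 1 start, and a gene was counted when any of its windows held a match. Of the 7 members, 5 held at least 1 copy (Hspa1a, Hspa1b, Hspb1, Hsph1 and Hspd1), and 14.5% of all 27025 genes in the table did (12.8% of its 32851 windows). The longer run of 3 repeats, TTCNNGAANNTTC or GAANNTTCNNGAA, was found in 0.514% of all genes (0.466% of windows) and among the 7 members in Hspd1. Capitals mark the matches, and each sequence reads 5′ to 3′ on the strand of its gene. The windows of Hspa1a (chr17:34972157-34972406, minus strand) and Hspb1 (chr5:135887669-135887918, plus strand) are given whole, because these genes stand for the inducible Hsp70 and small heat shock proteins. A stretch of 30 bases is given for Hspd1 (chr1:55088053-55088082, minus strand) and for Hsph1 (chr5:149636351-149636380, minus strand).
Hspa1a: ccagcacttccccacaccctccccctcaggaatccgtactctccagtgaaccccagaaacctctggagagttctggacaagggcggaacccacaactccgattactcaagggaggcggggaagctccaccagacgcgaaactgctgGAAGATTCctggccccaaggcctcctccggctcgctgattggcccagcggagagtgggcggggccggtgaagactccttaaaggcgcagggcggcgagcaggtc
Hspb1: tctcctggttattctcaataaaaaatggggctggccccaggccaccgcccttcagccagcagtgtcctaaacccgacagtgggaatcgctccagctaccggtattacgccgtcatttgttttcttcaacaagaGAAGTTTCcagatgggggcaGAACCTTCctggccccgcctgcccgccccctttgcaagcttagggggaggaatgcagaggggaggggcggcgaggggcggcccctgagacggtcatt
Hspd1: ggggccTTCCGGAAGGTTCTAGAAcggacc
Hsph1: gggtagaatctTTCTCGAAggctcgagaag
The pair in Hspa1a began 104 bases before the start, and the pairs in Hspb1 began 117 and 97 bases before it. Hspa1b held the same letters at the same distance, and its window (chr17:34959239-34959488, minus strand) was identical to that of Hspa1a at 247 of 250 bases. The pair in Hsph1 began 33 and 54 bases before its RefSeq starts (149636336 and 149636315). It lies inside the gene as annotated in GENCODE M21, which reaches to position 149636376. The table lists 2 starts for Hspd1, at positions 55088243 and 55087932. The run of repeats is in the window of the inner start (55087932) and lies inside the annotated gene, while the window of the outer start held neither form of the motif. Hspe1, which encodes the lid of the same mitochondrial chamber, is transcribed in the opposite direction. Its annotated start is 216 bases from the inner start of Hspd1, with the run between them, so that the run also stands in the window of Hspe1. The letters are a description of these windows and no measure of binding.

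Sham library 3 stood above the other 2 sham libraries in most of the genes studied here, and the members' calls are therefore also given without it. The library was picked by its values in these same genes, so calls made without it are no independent support for a response. It held the highest sham value for 9 of the 10 chaperones, with Hspb8 as the exception, while it held the highest for 24.8% of all tested genes. On the scale of log2(FPKM + 1), it was at least 2-fold above the mean of the other sham libraries for 6 of the 10 and for 1.33% of all tested genes. Sham library 1 departed the other way, with a median log2 difference of the members from the other sham libraries of -0.73, and library 2 had -0.29. Over all tested genes, library 1 was the highest sham library for 51.3%, and 2.53% were at least 2-fold higher in it. Hspa1a was at 63.1 FPKM in sham library 3, 8.18 times the mean of the other sham libraries, and Hspa1b was at 76.6 FPKM, 4.80 times that mean. Other folding genes shared this in part. Sham library 3 was the highest sham library for 14 of 17 tested chaperones of the endoplasmic reticulum, with a median log2 difference from the other sham libraries of 0.63, against 1.21 for the 10 members. It was the highest for 3 of 8 Hsp70 relatives, 10 of 20 co-chaperones and 5 of 13 other J proteins. At least 2-fold higher values in sham library 3 were met in 0 of 8 Hsp70 relatives, 0 of 20 co-chaperones, 1 of 13 other J proteins and 2 of 17 endoplasmic reticulum genes. Proximal tubule markers summed to 1230, 2237 and 2254 FPKM in sham libraries 1, 2 and 3, so library 3 was close to library 2 in the sum. Gene by gene, library 3 was the highest sham library for 6 of 8 proximal tubule markers (median log2 difference 0.75, with 2 at least 2-fold higher). The same held for 3 of 4 distal tubule markers (0.64), but for 1 of 5 thick ascending limb markers (-0.41) and 0 of 6 collecting duct markers (-0.56). Thick ascending limb markers summed to 1636, 1444 and 1075 FPKM, the lowest in library 3. The part of cell make-up in the high chaperone values was not tested.

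Over the whole series, FPKM summed to between 421810 and 509537 per library, the correlation of log2 values within a group was between 0.942 and 0.980 across genes, and no read depth is known. Kidney identity was borne out by the tubule markers, and these differed between the groups. The 8 proximal tubule markers summed to between 100.2 and 281 FPKM at day 3 and between 1230 and 2254 FPKM in sham, and all 8 were called lower. The 4 tested neutrophil markers were all called higher at day 3, and the 7 listed ones summed to between 30.8 and 109 FPKM at day 3 and between 2.74 and 14.6 FPKM in sham. The 7 macrophage markers summed to between 169 and 237 FPKM at day 3 and between 79.2 and 87.0 FPKM in sham, although of the 6 tested ones 2 were called higher and 3 lower. Of all tested genes, 39.3% were called higher and 20.6% lower at day 3. At day 7, proximal tubule markers summed to between 1439 and 1689 FPKM. No lymphocyte marker passed the filter, and the adrenal marker Cyp11b1 was listed at 0 in all 9 libraries. The part of these changes in cell make-up in the chaperone results below was not tested.

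At day 3, Hspb1 and Hsp90aa1 were higher than in sham and Hspa8 was lower. The remaining members were not called in either direction when all 9 libraries were used. Calls are from limma on log2(FPKM + 1) with Benjamini-Hochberg adjusted p under 0.05 over all tested genes. That makes 2 of 10 members higher and 1 lower, against 59.9% of all tested genes called in this comparison (39.3% higher and 20.6% lower). The members' share of calls was thus below the background, and their median log2 fold change was 0.18 beside 0.25 for all tested genes. Libraries of day 3 and sham did not overlap for 5780 higher and 2997 lower of the 13718 tested genes. Of the members, 2 were higher and 1 lower without overlap. Scaling mattered here: the median of all genes was 0.03 once the libraries were scaled by median of ratios, which turned 5389 genes higher and 2825 lower into 4084 and 3950. The same 3 members were called under it, together with Hsp90ab1.

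**Figure D1:**
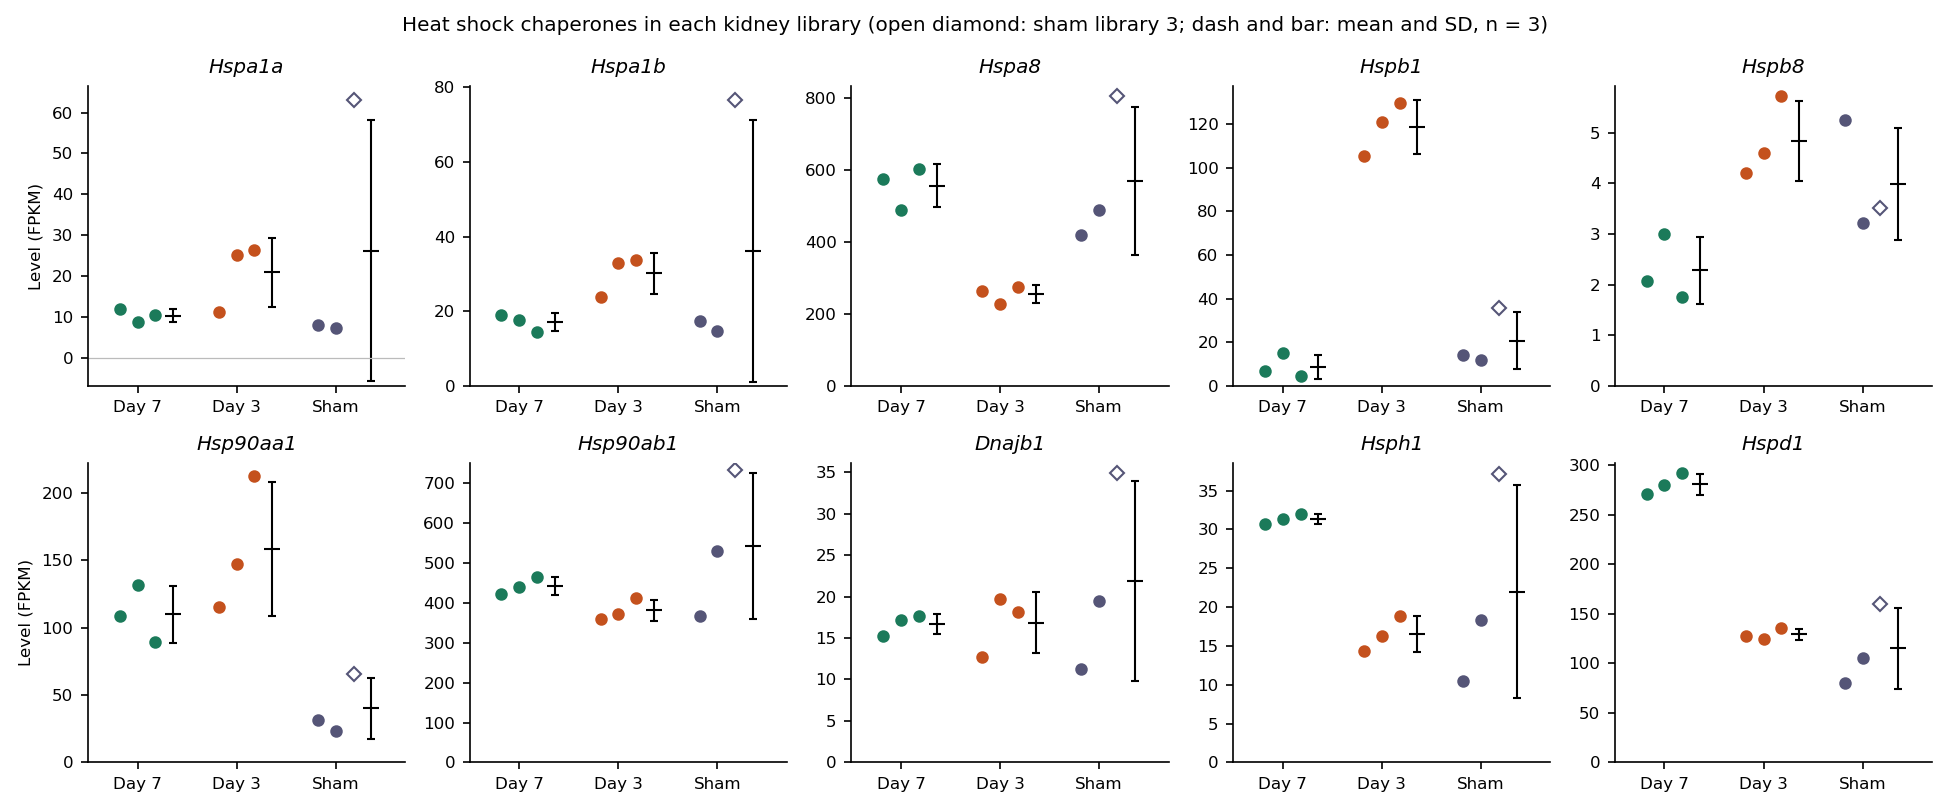
Level of each of the 10 genes in FPKM (vertical axis, linear) in the day 7, day 3 and sham libraries. Points are libraries, the open diamond is sham library 3, and dashes with bars are mean and SD of 3 libraries; Hspb1 at day 3 and Hspd1 at day 7 lie above every library of the other groups, and Hspa8 at day 3 lies below them.

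Hspb1, the small heat shock protein that also guards actin filaments, was at 106, 121 and 129.8 FPKM in the day 3 libraries and at 14.3, 12.01 and 35.6 FPKM in the sham libraries. The groups did not overlap, and even the high sham library 3 stayed far below the lowest day 3 library. The log2 fold change was 2.62 ± 0.45 (SE; limma adjusted p = 0.00109). By day 7 the 3 libraries were at 6.85, 15.02 and 4.49 FPKM, which overlapped the sham range (log2 fold change against sham -1.13, limma adjusted p = 0.0903). Between the injected groups the log2 fold change of day 7 against day 3 was -3.76 ± 0.45 (limma adjusted p = 0.000189), the largest of any member in any comparison. Hspb1 made up 0.603% of the summed FPKM of the 10 genes at day 7, 10.5% at day 3 and 1.41% in sham.

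Hspb8, which forms a complex with Bag3 that sends damaged proteins to autophagy, was the lowest of the 10 in every group. It was at 2.08, 3.01 and 1.75 FPKM at day 7, at 4.2, 4.61 and 5.72 FPKM at day 3 and at 5.25, 3.21 and 3.51 FPKM in sham. The day 3 values lay among those of sham or just above them (log2 fold change 0.24 ± 0.20, limma adjusted p = 0.318). Day 7 lay below both other groups without overlap. It was called lower than day 3 (log2 fold change -0.84 ± 0.20, limma adjusted p = 0.00633) and only just lower than sham (-0.60 ± 0.20, limma adjusted p = 0.0496). The call against sham was lost in 14 of 20 alternative analyses, among them the one without sham library 3 (limma adjusted p = 0.0664). The ratio of Hspb1 to Hspb8 within a library averaged 24.7 ± 1.83 at day 3 and 5.54 ± 4.03 in sham (SD, n = 3 each), with no overlap of the libraries. Both small heat shock protein genes were thus called lower at day 7 than at day 3.

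Hsp90aa1, the stress-inducible Hsp90, was higher than in sham at both times. Its levels were 108, 132 and 89.1 FPKM at day 7, 115, 147 and 213 FPKM at day 3 and 31.2, 23.5 and 65.6 FPKM in sham. Neither injected group overlapped sham, but they overlapped each other. The log2 fold change was 2.04 ± 0.37 at day 3 (limma adjusted p = 0.00136) and 1.54 ± 0.37 at day 7 (limma adjusted p = 0.0149), both against the same sham libraries. Without sham library 3 it was 1.96 ± 0.28 at day 7 (limma adjusted p = 0.00436). Day 7 and day 3 were not told apart (-0.50 ± 0.37, limma adjusted p = 0.278). The day 7 call was lost without sham library 2 (limma adjusted p = 0.0513), without day 7 library 2 (0.0546) and after removal of GC content and length trends (0.0867).

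Hsp90ab1, the Hsp90 made at all times, was among the most abundant of the 10 throughout. It was at 421, 439 and 466 FPKM at day 7, at 361, 371 and 411 FPKM at day 3 and at 367, 530.1 and 733 FPKM in sham. The wide sham range held nearly all other libraries, and no comparison was called (log2 fold change at day 3 -0.46 ± 0.22, limma adjusted p = 0.102). At day 3 it was called lower under median-of-ratios scaling of the libraries (limma adjusted p = 0.0344) and without sham library 1 (0.00528). The 2 Hsp90 genes summed to between 529.8 and 570.3 FPKM at day 7, between 475 and 624 FPKM at day 3 and between 398 and 798 FPKM in sham, so the sums overlapped. Their balance differed: the ratio of Hsp90aa1 to Hsp90ab1 within a library was 0.249 ± 0.0548 at day 7, 0.411 ± 0.0999 at day 3 and 0.0730 ± 0.0249 in sham (SD, n = 3 each). The 3 groups of ratios did not overlap, and sham library 3, with 0.0896, lay close to sham library 1, with 0.0851. This ratio does not depend on how the library was scaled. An exact two-sided permutation test of 3 libraries against 3 cannot give a p below 0.1, and it gave 0.1 for each of the 3 pairs of groups (adjusted p = 0.15 over the 12 comparisons of 4 ratios).

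**Figure D2:**
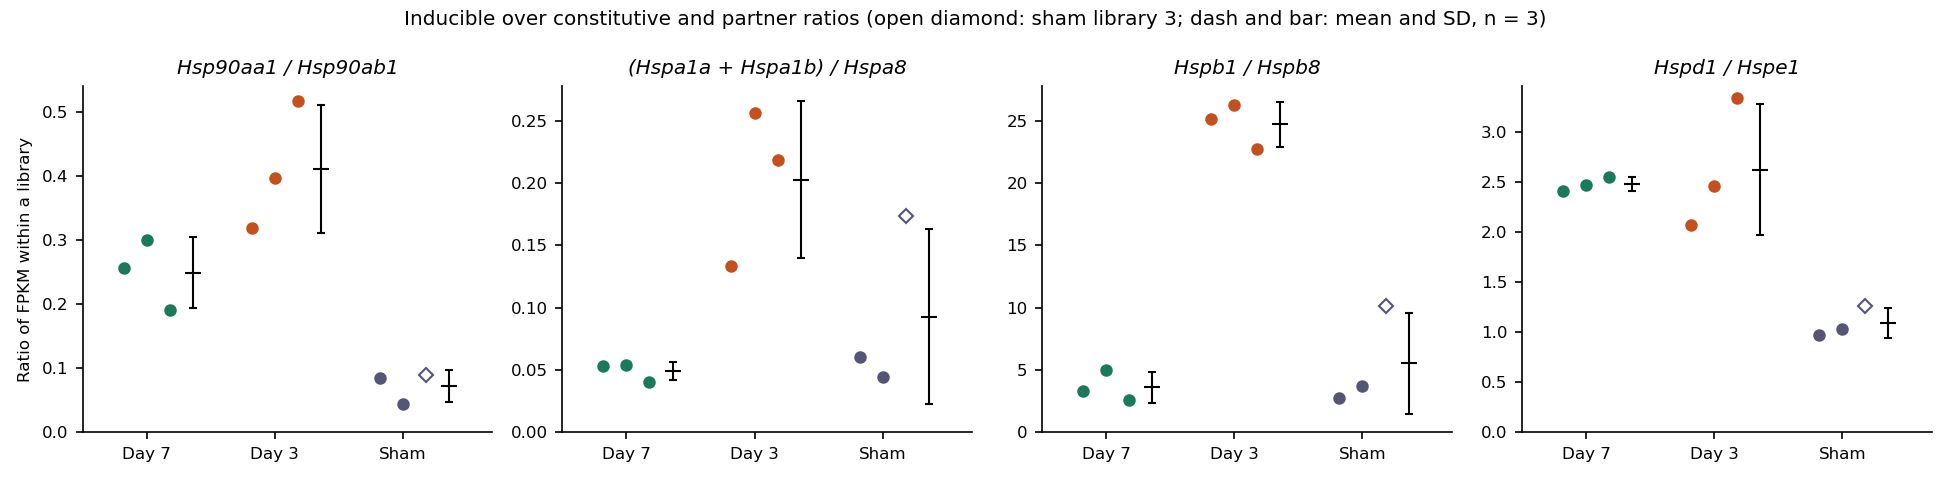
Ratios of FPKM within each library (vertical axes, linear from 0) for Hsp90aa1 over Hsp90ab1, Hspa1a plus Hspa1b over Hspa8, Hspb1 over Hspb8, and Hspd1 over Hspe1, in day 7, day 3 and sham libraries. Points are libraries, the open diamond is sham library 3, dashes with bars are mean and SD; the Hsp90 ratio separates all 3 groups, and the Hspd1 ratio separates both injected groups from sham.

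Hspa8, the constitutive Hsp70 that also strips the coats of clathrin vesicles, was the one member that was lower at day 3. It was at 263, 227 and 275 FPKM at day 3 and at 419, 489 and 806 FPKM in sham, with no overlap. The log2 fold change was -1.11 ± 0.23 with all libraries (limma adjusted p = 0.0029) and -0.83 ± 0.15 without sham library 3 (limma adjusted p = 0.00269). At day 7 it was at 576, 489.6 and 605 FPKM, inside the sham range (log2 fold change 0.02 ± 0.23, limma adjusted p = 0.97). Day 7 was above day 3 (1.12 ± 0.23, limma adjusted p = 0.00302). Hspa8 made up 37.7% of the members' summed FPKM at day 7, 22.6% at day 3 and 41.1% in sham. It ranked first of the 10 by mean level at day 7 and in sham, and second at day 3, after Hsp90ab1.

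Hspa1a and Hspa1b, the inducible Hsp70 genes, lie side by side on chr17 (34969190-34972156 and 34956436-34959238, both on the minus strand; GENCODE M21 on GRCm38). Their longest reading frames are 99.6% identical, with 8 mismatches over 1926 aligned bases, so reads could be split between them in ways that the files do not show, and their separate values are uncertain. Hspa1a was at 11.8, 8.68 and 10.3 FPKM at day 7, at 11.2, 25.2 and 26.4 FPKM at day 3, and at 8.07, 7.35 and 63.1 FPKM in sham. Hspa1b was at 19.0, 17.7 and 14.3 FPKM at day 7, at 23.9, 32.9 and 33.8 FPKM at day 3, and at 17.4, 14.6 and 76.6 FPKM in sham. In both genes, sham library 3 lay above all 8 other libraries. In both, the day 3 libraries lay above the other 2 sham libraries.

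With all libraries the summed pair was not called in any comparison (day 3 against sham: log2 fold change 0.20 ± 0.60, limma adjusted p = 0.785). Removal of sham library 3, picked for its high values in these genes, raises their fold changes against sham and narrows their spread by construction. Without sham library 3, both genes were called higher at day 3, the only 1 of 21 alternatives for Hspa1a and of 20 for Hspa1b with that call. The log2 fold change was then 1.24 ± 0.34 for Hspa1a (limma adjusted p = 0.0152) and 0.87 ± 0.19 for Hspa1b (limma adjusted p = 0.00639). At day 7, neither was called against sham in either analysis. Day 7 was lower than day 3 without sham library 3 (Hspa1a -0.88 ± 0.30, limma adjusted p = 0.0376; Hspa1b -0.78 ± 0.17, limma adjusted p = 0.00581), a comparison in which that library serves only to estimate the spread. The ratio of inducible to constitutive Hsp70, Hspa1a plus Hspa1b over Hspa8, was 0.0535, 0.0540 and 0.0407 in the day 7 libraries, 0.133, 0.256 and 0.219 in the day 3 libraries, and 0.0607, 0.0448 and 0.173 in the sham libraries. Day 3 lay above day 7 without overlap (exact permutation p = 0.1, the smallest this design allows), and sham library 3 lay within the day 3 range.

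Dnajb1, the main J partner of inducible Hsp70, was at 15.3, 17.1 and 17.6 FPKM at day 7, at 12.7, 19.8 and 18.1 FPKM at day 3 and at 11.2, 19.5 and 34.9 FPKM in sham. All groups overlapped, and no alternative analysis called it in any comparison. Across the 10 genes its profile over the 9 libraries was closest to that of Hsp90ab1, at a Euclidean distance of 0.68 on log2 values set to the sham mean. The distance between Hspa1a and Hspa1b was 0.91.

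Hsph1, the Hsp110 protein that frees Hsp70 of its spent nucleotide, was at 30.8, 31.3 and 31.9 FPKM at day 7, at 14.3, 16.2 and 18.9 FPKM at day 3, and at 10.4, 18.4 and 37.2 FPKM in sham. The day 7 libraries were close to each other and all above day 3, while sham spanned both groups. With all libraries no comparison was called (day 7 against day 3: log2 fold change 0.90 ± 0.36, limma adjusted p = 0.0608). Without sham library 3, day 7 was called higher than day 3 (0.90 ± 0.20, limma adjusted p = 0.00591) and higher than sham (1.12 ± 0.22, limma adjusted p = 0.0108).

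Hspd1 was higher at day 7 than in both other groups. Its levels were 271, 279.98 and 292 FPKM at day 7, 128, 124 and 136 FPKM at day 3 and 79.9, 106 and 159.6 FPKM in sham. Every day 7 library lay above every other library, and day 3 lay inside the sham range. The log2 fold change of day 7 was 1.34 ± 0.22 against sham (limma adjusted p = 0.00337; 1.60 ± 0.14 and 0.00229 without sham library 3) and 1.11 ± 0.22 against day 3 (limma adjusted p = 0.00229). Day 3 was not called with all libraries (0.22 ± 0.22, limma adjusted p = 0.394). It was called higher without sham library 3 (0.49 ± 0.14, limma adjusted p = 0.02). Other mitochondrial chaperone genes also had every day 7 library above every other library. Among them was Clpx, with at least 44.0 FPKM at day 7 and at most 29.3 FPKM elsewhere.

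Hspe1, the lid of the Hspd1 chamber, was lower at day 3. It was at 112, 113 and 115 FPKM at day 7, at 61.9, 50.4 and 40.7 FPKM at day 3 and at 81.8, 102 and 127 FPKM in sham. It was called lower at day 3 (log2 fold change -1.01 ± 0.19, limma adjusted p = 0.00173), not called at day 7 against sham (0.15, limma adjusted p = 0.583), and called higher at day 7 than at day 3 (1.16, limma adjusted p = 0.000937). The ratio of Hspd1 to Hspe1 was 2.48 ± 0.0696 at day 7, 2.62 ± 0.650 at day 3 and 1.09 ± 0.149 in sham (SD, n = 3 each). Neither injected group overlapped sham (exact permutation p = 0.1 each, the smallest possible), and sham library 3, with 1.26, stayed below both. Counted from the outer start of Hspd1, the genes overlap by 95 bases, and without known strand use reads there cannot be told apart.

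At day 7 the count over the 10 was 2 higher than sham (Hsp90aa1 and Hspd1) and 1 lower (Hspb8), against 29.7% of all tested genes called (19.3% higher and 10.4% lower), so the share was close to the background. The median log2 fold change was -0.24 for the members and 0.06 for all tested genes. Libraries of day 7 and sham did not overlap for 4053 higher and 2625 lower of the 13718 tested genes, and for 2 and 1 members. This comparison and that of day 3 share their sham libraries. Between day 7 and day 3, 2 members were higher (Hspa8 and Hspd1) and 2 lower (Hspb1 and Hspb8), against 55.4% of all tested genes (21.7% higher and 33.7% lower). The medians were -0.25 for the members and -0.16 for all tested genes. Here the libraries did not overlap for 3459 higher and 5375 lower of the 13718 tested genes, and for 4 and 3 members. Median-of-ratios scaling changed the split of all genes at day 7 against sham (2646 higher and 1429 lower as deposited, 2246 and 2228 scaled) and at day 7 against day 3 (2977 and 4626 as deposited, 3742 and 3744 scaled). The comparison of day 7 with day 3 uses no sham values in its fold changes.

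Without sham library 3, more members were called at day 3 and between day 7 and day 3, while at day 7 against sham the number was 3 in both analyses. As that library was picked by its values in the members, the added calls are no independent support. At day 3 there were 5 higher (Hspa1a, Hspa1b, Hspb1, Hsp90aa1 and Hspd1) and 1 lower (Hspa8), with 54.5% of all tested genes called (35.1% higher and 19.5% lower). The log2 fold change was then 3.08 ± 0.39 for Hspb1 (limma adjusted p = 0.000528) and 2.46 ± 0.28 for Hsp90aa1 (limma adjusted p = 0.000335). At day 7 there were 3 higher than sham (Hsp90aa1, Hsph1 and Hspd1) and 0 lower in that limma fit, with 27.4% of all tested genes called, 16.5% higher and 10.9% lower (1 member lower, Hspb8, at an unadjusted p under 0.05). Between day 7 and day 3 there were 3 higher (Hspa8, Hsph1 and Hspd1) and 4 lower (Hspa1a, Hspa1b, Hspb1 and Hspb8), against 55.4% of all tested genes. The members' median log2 fold change at day 3 was then 0.36, beside 0.21 for all tested genes, and at day 7 against sham 0.22, beside 0.03.

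**Figure D3:**
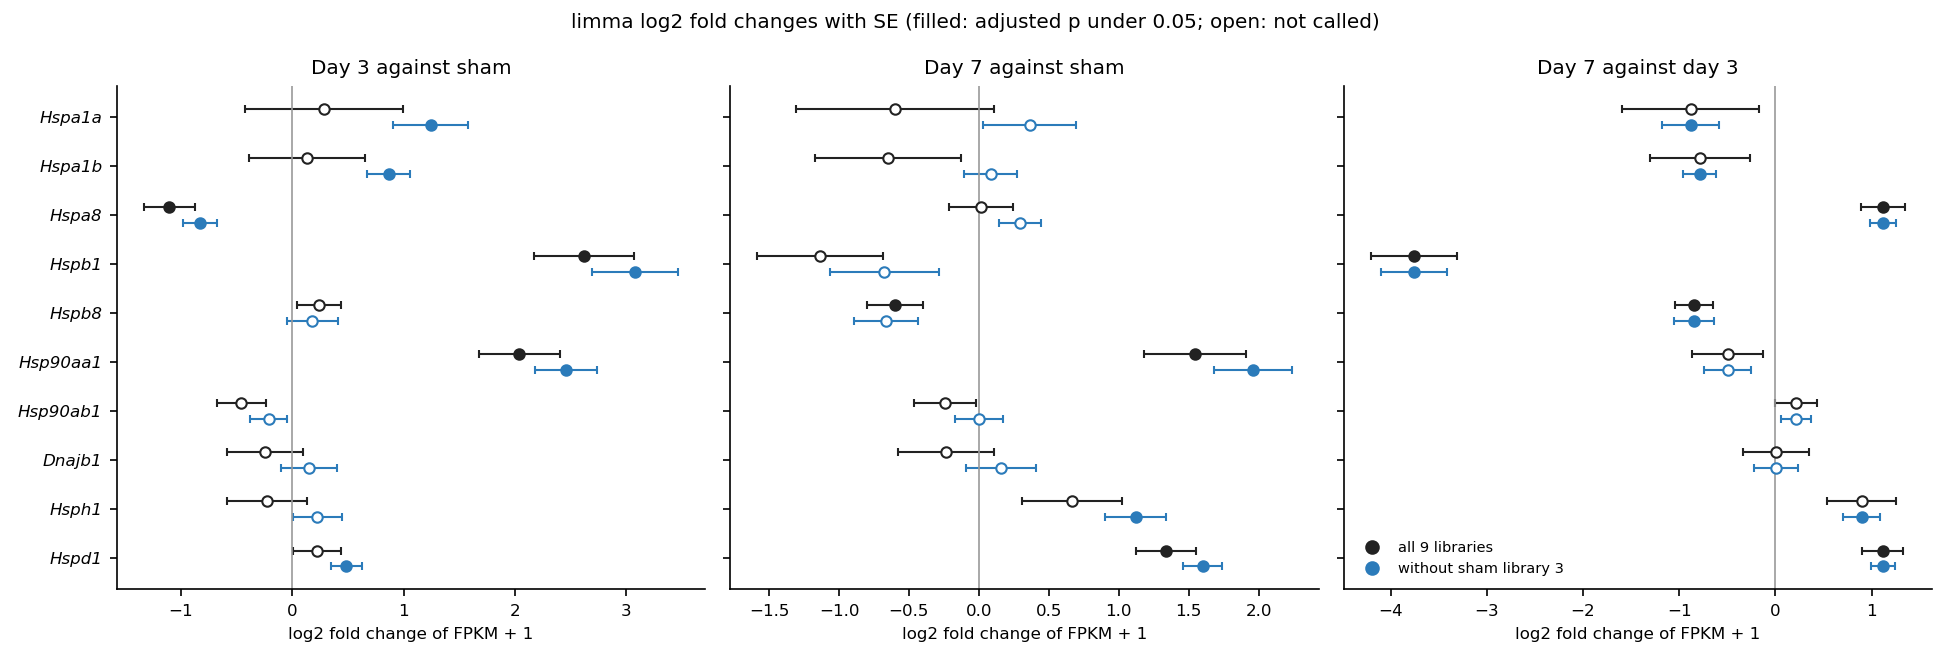
log2 fold changes of FPKM + 1 with standard errors (horizontal axes) for the 10 genes in the 3 comparisons, with all 9 libraries (black) and without sham library 3 (blue). Filled points passed an adjusted p of 0.05; Hspa1a and Hspa1b at day 3 are filled in blue alone, and Hspb1, Hsp90aa1 and Hspa8 are filled in both.

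The 10 genes summed to 1463, 1433 and 1532 FPKM at day 7, 1038, 1089 and 1268 FPKM at day 3 and 964, 1224 and 2014 FPKM in sham. Sham library 3 held the highest sum of all 9 libraries and sham library 1 the lowest. Hspa8 and Hsp90ab1 together made up between 64.8% and 69.9% of the sum at day 7, between 54.2% and 60.1% at day 3 and between 76.4% and 83.3% in sham, without overlap between any 2 groups. By mean FPKM the day 7 order was Hspa8, Hsp90ab1, Hspd1, Hsp90aa1, Hsph1, Hspa1b, Dnajb1, Hspa1a, Hspb1 and Hspb8, and neighbours overlapped for Hspa1b with Dnajb1 and for Hspa1a with Hspb1. The day 3 order was Hsp90ab1, Hspa8, Hsp90aa1, Hspd1, Hspb1, Hspa1b, Hspa1a, Dnajb1, Hsph1 and Hspb8. There, neighbours overlapped from Hsp90aa1 through Hspb1 and from Hspa1b through Hsph1. In sham the order was Hspa8, Hsp90ab1, Hspd1, Hsp90aa1, Hspa1b, Hspa1a, Hsph1, Dnajb1, Hspb1 and Hspb8, and neighbours overlapped for Hspa8 with Hsp90ab1 and from Hsp90aa1 through Hspb1.

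**Figure D4:**
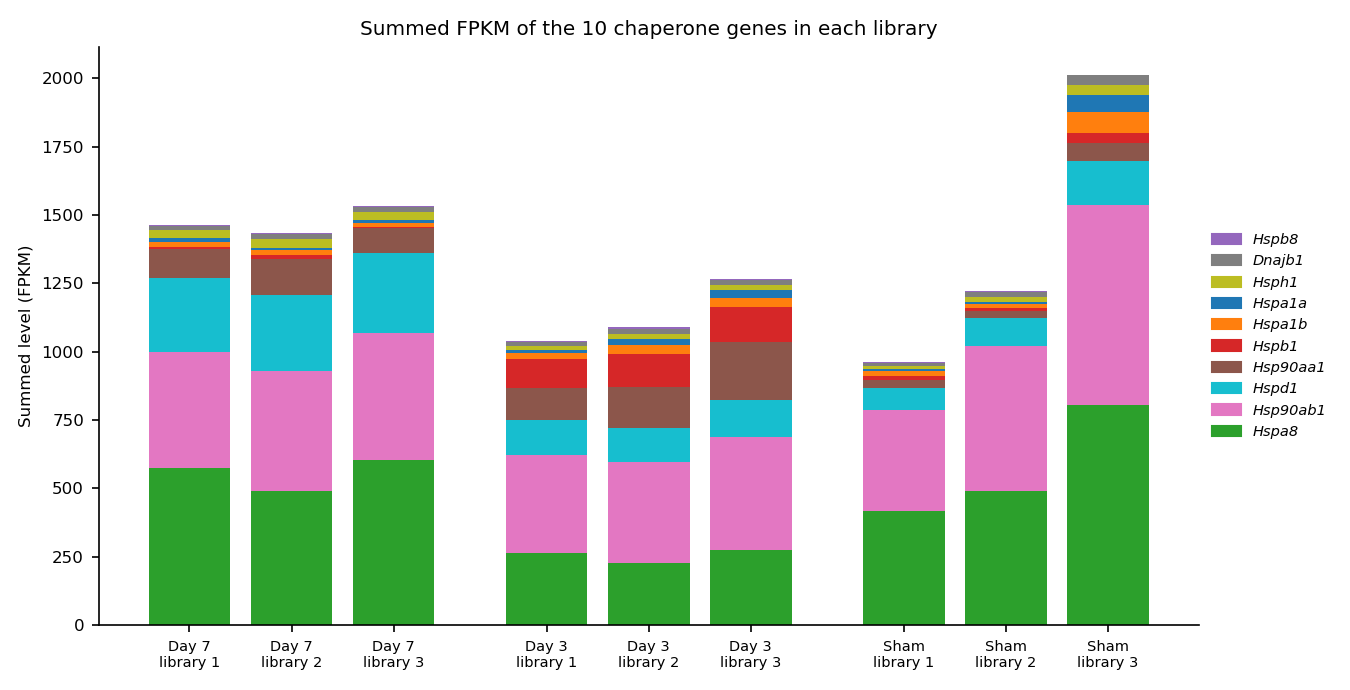
Summed FPKM of the 10 genes (vertical axis, linear from 0) in each of the 9 libraries, in the order day 7, day 3 and sham, with 1 colour per gene. Hspb1 and Hsp90aa1 take a visibly larger part of the bar at day 3, and sham library 3 has the tallest bar, 2014 FPKM.

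The other genes of the folding network were read from 8 lists of pathway members. Their counts at day 3 are to be read against the 39.3% of all tested genes that were higher and the 20.6% that were lower. Counts under median-of-ratios scaling have their own background, 4084 of 13718 genes higher and 3950 lower. Without sham library 3 the background was 35.1% higher and 19.5% lower. Of the genes that regulate the response, Hsf1, the main heat shock factor, was at 2.59, 2.63 and 2.45 FPKM at day 7, 2.69, 2.61 and 2.52 FPKM at day 3 and 2.95, 2.99 and 2.58 FPKM in sham (log2 fold change at day 3 -0.09, limma adjusted p = 0.449). It was called lower at day 3 under median-of-ratios scaling (-0.31, limma adjusted p = 0.0139) and quantile normalization (-0.38, limma adjusted p = 0.00588). Hsf2, a related factor active in development, averaged 2.12 ± 0.323 FPKM at day 3 and 1.16 ± 0.122 FPKM in sham (log2 fold change 0.53, limma adjusted p = 0.00476). Hsf4, best known from the lens, averaged 1.53 ± 0.266 and 0.763 ± 0.366 FPKM in the same groups (0.53, limma adjusted p = 0.0196). Hsbp1, which binds Hsf1, averaged 48.9 ± 6.62 FPKM at day 7 and 72.0 ± 5.75 FPKM in sham (log2 fold change -0.55, limma adjusted p = 0.0118). It was not called at day 3 as deposited (limma adjusted p = 0.11). Under median-of-ratios scaling, 1 of these 4 tested genes was called higher at day 3 and 2 lower, Hsf1 and Hsbp1. The day 3 call of Hsf4 was lost without sham library 3 (limma adjusted p = 0.0687) and under median-of-ratios scaling (0.0547) and quantile normalization (0.0931).

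Among 4 tested small heat shock protein genes besides the members, 2 were higher and 1 lower at day 3. Cryab, the alpha-B crystallin that shares its client holding role with Hspb1, was at 203, 246 and 215 FPKM at day 3 and at 70.9, 60.5 and 26.6 FPKM in sham (log2 fold change 2.16 ± 0.45, limma adjusted p = 0.00315). In it, sham library 3 was the lowest sham library, while for Hspb1 it was the highest. At day 7 Cryab was called lower than at day 3 (log2 fold change -2.12, limma adjusted p = 0.0039) and was not called against sham (limma adjusted p = 0.958). Hspb2, the neighbour of Cryab on the chromosome, was at 10.8 ± 2.80 FPKM at day 3 and 2.90 ± 1.44 FPKM in sham (1.65, limma adjusted p = 0.00396). Hspb7, a muscle small heat shock protein, was lower at 1.28 ± 0.410 FPKM at day 3 and 2.57 ± 0.573 FPKM in sham (-0.65, limma adjusted p = 0.00834).

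Of 20 co-chaperones, 8 were higher and 1 was lower at day 3, a share of higher calls near that of all tested genes, but under median-of-ratios scaling 5 were higher and 5 lower. Bag3, the Hsp70 partner that works with Hspb8 and is itself a known heat shock factor target, was at 27.1, 40.2 and 36.3 FPKM at day 3 and at 12.1, 12.8 and 17.4 FPKM in sham (log2 fold change 1.23 ± 0.18, limma adjusted p = 0.000444). At day 7 it was called lower than at day 3 (-1.38, limma adjusted p = 0.00029) and was not called against sham (limma adjusted p = 0.592). Fkbp4 and Fkbp5, the immunophilins that compete for Hsp90 in steroid receptor complexes, went in opposite directions at day 3. Fkbp4 averaged 32.2 ± 6.27 FPKM at day 3 and 126 ± 39.1 FPKM in sham (-1.90, limma adjusted p = 0.000184). Fkbp5, which glucocorticoids are known to induce, averaged 31.1 ± 11.5 and 10.04 ± 2.31 FPKM in the same groups (1.5, limma adjusted p = 0.00107). Ptges3, the Hsp90 cochaperone p23, averaged 60.1 ± 4.12 and 29.5 ± 4.34 FPKM in them (1.01, limma adjusted p = 0.000193).

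Of 8 further Hsp70 and Hsp110 relatives, 6 were higher and 0 lower at day 3 by limma, also 0 lower at an unadjusted p under 0.05; median-of-ratios scaling gave 5 and 1. The largest changes were in Hspa14 (log2 fold change 1.17), a ribosome-bound Hsp70, Hspa4l (0.94), Hspa1l (0.89) and Hspa13 (0.85), with limma adjusted p between 0.000138 and 0.0157. Under quantile normalization the calls of Hspa4l (limma adjusted p = 0.0704) and Hspa13 (0.0537) were lost. Hspa1l lies next to Hspa1a and is 83.9% identical to it in the reading frame, so that its low level (3.13 ± 0.827 FPKM at day 3 and 1.21 ± 0.227 FPKM in sham) may hold shared reads. Of 13 other J proteins, 8 were higher and 0 lower by limma, also 0 lower at an unadjusted p under 0.05; median-of-ratios scaling gave 6 and 2. They included Dnajc5 (1.49), which works at secretory vesicles, Dnaja2 (1.2), a cytosolic Hsp70 partner, Dnajc2 (1.02), which sits at the ribosome, and Dnajc8 (0.72), found with the spliceosome. Of 14 subunits of the cytosolic folding chamber TRiC and of prefoldin, which feeds it actin and tubulin, 10 were higher and 1 lower at day 3, and 7 and 2 under median-of-ratios scaling. Vbp1 had the largest change (25.4 ± 1.90 FPKM at day 3 and 6.45 ± 0.530 FPKM in sham, log2 fold change 1.82, limma adjusted p = 6.42e-06), ahead of Cct8 (1.16), Pfdn4 (1.12) and Cct4 (0.95).

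Mitochondrial and endoplasmic reticulum chaperones held more lower than higher calls at day 3. Of 14 mitochondrial genes, 7 were lower and 3 higher (after median-of-ratios scaling, 9 and 1). The lower ones included Trap1, the mitochondrial Hsp90 (46.5 ± 2.84 FPKM at day 3 and 109.9 ± 9.50 FPKM in sham, log2 fold change -1.22, limma adjusted p = 3.3e-05). Clpx (-1.14), which unfolds matrix proteins, and Clpb (-0.98), which dissolves aggregates in the intermembrane space, were lower too, with limma adjusted p of 0.00103 and 0.000258. Of 17 chaperones of the endoplasmic reticulum, 6 were lower and 3 higher, with 9 and 2 under median-of-ratios scaling and 4 and 3 without sham library 3. Sil1, which exchanges the nucleotide of Hspa5, had a log2 fold change of -2.10 (limma adjusted p = 2.2e-05), and calreticulin (Calr) one of -1.27 (limma adjusted p = 0.00276). Dnajb9 (1.70) and Dnajc10 (1.11), J proteins of the same compartment, were higher, with limma adjusted p of 0.000192 and 0.000145. Hspa5, the Hsp70 of that compartment, spread from 50.7 to 171 FPKM over the sham libraries and was not called at day 3 (0.34, limma adjusted p = 0.468) or at day 7 (0.53, limma adjusted p = 0.332).

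Without sham library 3, the day 3 counts were 6 higher and 0 lower by limma for Hsp70 relatives (also 0 lower at an unadjusted p under 0.05), 7 and 2 for co-chaperones, and 10 and 1 for TRiC and prefoldin. They were 6 and 0 for J proteins (also 0 lower at an unadjusted p under 0.05) and 3 higher and 6 lower for mitochondrial genes. Of the genes named above from these lists as called at day 3, Hsf4 was the one that lost its call. Cryab then had a log2 fold change of 1.74 (limma adjusted p = 0.00917), Bag3 one of 1.39 (0.000522) and Hspe1 one of -0.85 (0.00583).

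At day 7 against sham, 19.3% of all tested genes were higher and 10.4% lower. Of 8 Hsp70 relatives 5 were higher, of 13 J proteins 5 were higher, and of 20 co-chaperones 4 were higher and 4 lower. Of 14 TRiC and prefoldin subunits 5 were higher and 2 lower, of 14 mitochondrial genes 3 were higher and 1 lower, and of 17 genes of the endoplasmic reticulum 4 were higher. These counts did not hold after removal of GC content and length trends, which left 1 Hsp70 relative, 1 J protein, 2 TRiC and prefoldin subunits and 1 endoplasmic reticulum gene higher, and 1 co-chaperone lower. Calls over all tested genes fell as well, from 4075 genes to 856 of 13707 genes, so the loss was not particular to these lists. No mitochondrial gene of the list was called by limma then (3 higher and 3 lower at an unadjusted p under 0.05, and 3 and 1 called as deposited).

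Between day 7 and day 3, 21.7% of all tested genes were higher and 33.7% lower. Under median-of-ratios scaling 3742 genes were higher and 3744 lower. Of 14 TRiC and prefoldin genes 9 were lower and 0 higher by limma (also 0 higher at an unadjusted p under 0.05), but 6 were lower and 1 higher under median-of-ratios scaling. Of 14 mitochondrial genes 7 were higher and 2 lower, and of 17 endoplasmic reticulum genes 8 were higher and 2 lower. Of 20 co-chaperones 3 were higher and 9 lower, of 13 J proteins 3 were higher and 6 lower, and of 8 Hsp70 relatives 1 was higher and 2 were lower.

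**Figure D5:**
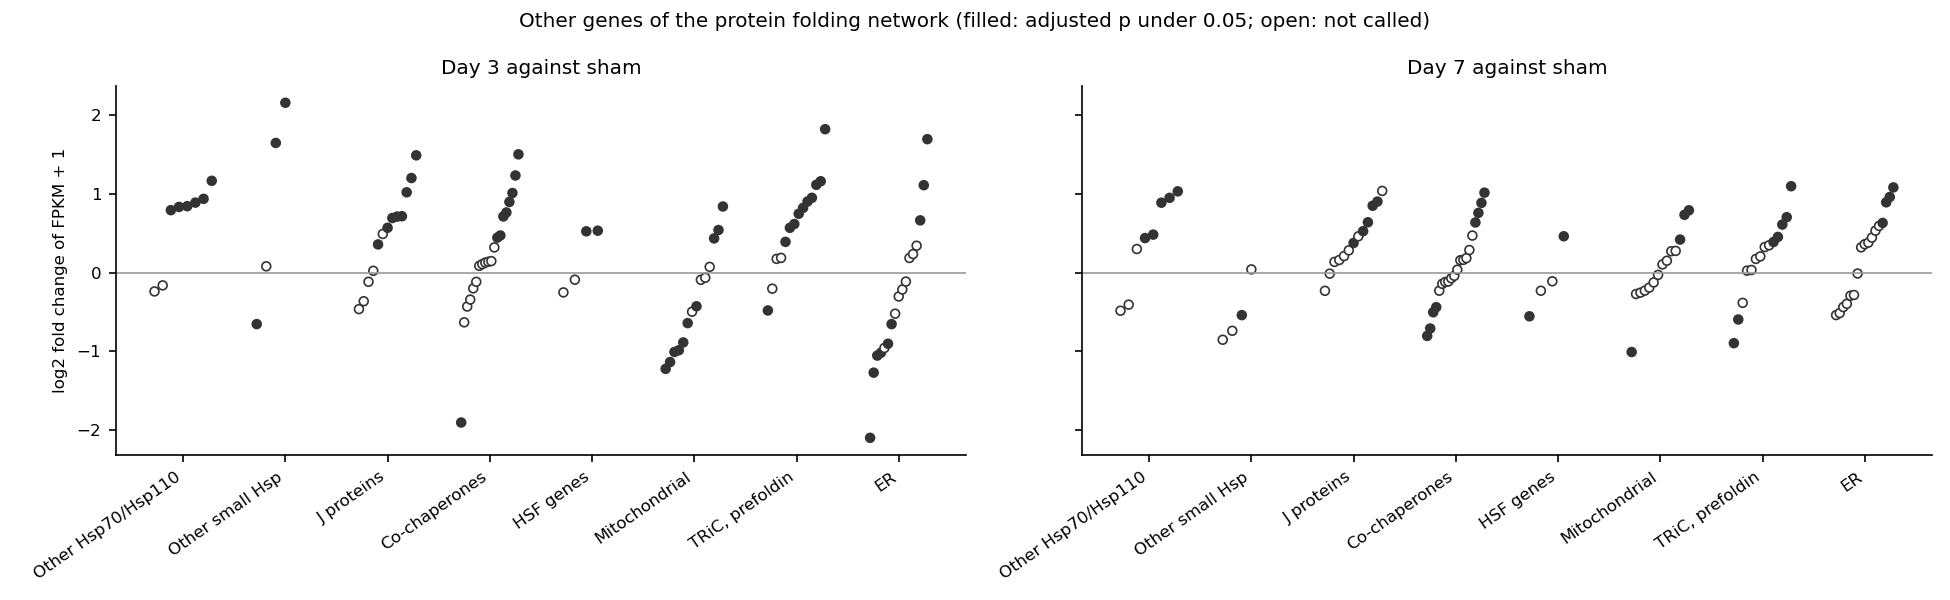
log2 fold changes of FPKM + 1 (vertical axis) at day 3 against sham and at day 7 against sham for the tested genes of 8 lists of folding genes outside the 10 members. Each point is a gene, filled where the adjusted p was under 0.05; at day 3 most TRiC and prefoldin genes lie above 0 and most mitochondrial genes below it.

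The genes whose profiles were nearest to 4 of the members over the 9 libraries were found by Euclidean distance on log2(FPKM + 1) set to the sham mean. They were picked for likeness over these libraries, so a shared pattern is built into the choice. Nearest to Hspb1 were Junb (distance 1.48) and Zfp36 (1.5), both immediate early genes, and Lgals3bp (1.5). Junb was at 39.4, 57.5 and 55.2 FPKM at day 3 and at 6.16, 5.08 and 5.80 FPKM in sham. Nearest to Hsp90aa1 were Gnai3 (1.13), Nkapd1 (1.15) and Rnf149 (1.21). Near to Hspd1 were Pdpr (0.46), which controls pyruvate dehydrogenase, and Sucla2 (0.47), a citric acid cycle enzyme. Sucla2 was at 41.2, 35.9 and 42.6 FPKM at day 7, at 19.1, 19.8 and 20.4 FPKM at day 3 and at 12.9, 15.4 and 18.2 FPKM in sham, an order of groups like that of Hspd1. Nearest to Hspa1a were Rnu2-10 (1.57), Kcnj2 (1.73) and Rpl41 (1.84), each with sham library 3 as its highest sham value. Rnu2-10 was near the floor, at 0, 0.09 and 0 FPKM at day 7.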

How the data were processed

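Kidney RNA of 9 mice was sequenced by the submitters, 1 library per mouse. Per the labels, the RNA, purified with TRIzol, had an integrity number above 7.0, and 2 µg entered a directional library kit. The authors deposited FPKM per gene, rounded to 2 decimals. HISAT, StringTie, FastQC 0.10.1 and GRCm38 are named in the submitters' processing notes, with no strand setting or annotation release. FPKM is scaled within a library, so abundant transcripts lower all others. Read depth is unknown, so no counting interval is given.

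Symbols came from GENCODE M21 (55144 of 55385 IDs matched). Tests used log2(FPKM + 1), which understates changes of low genes, over the 13718 genes that reached 1 FPKM in 3 or more of 9 libraries. limma 3.58.1 (R 4.3.3) was fitted to all 9 libraries with group as the only term, eBayes with trend, two-sided, and Benjamini-Hochberg adjustment over all tested genes at 0.05. The code was tested on simulated data. Promoters came from the RefSeq table of GRCm38.p6. Errors are SD over 3 libraries or limma standard errors.

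Genes named outside the members were all tested heat shock factor genes, up to 4 called genes per pathway list with the largest day 3 changes and a group mean of at least 1 FPKM, Bag3, Cryab, Hspe1 and Hspa5, and the 3 nearest profiles of 4 members (predicted genes left out, and 1 gene is not reported here). The members and lists were chosen with earlier results of these data known. Alternatives varied the pseudocount (0.1), the filter (none, or 5 FPKM) and the scaling (median of ratios, quantiles, mitochondrially encoded genes removed). They also varied the variance model (robust, untrended) and the libraries fitted (the 6 of a contrast, each left out in turn). Others added a replicate block or summed Hspa1a and Hspa1b. A 2-fold minimum was applied to the numbers of genes and members called, not to single genes. Removal of GC content and length trends (splines with 5 degrees of freedom) was chosen after seeing the data. So was the separate account of the calls without sham library 3.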

Additional observations from a re-analysis of the deposited data

Results flagged for a closer look

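For 4 of the 10 chaperones the response at day 7 differed from the response at day 3, by limma's test of day 7 against day 3 (the sham values cancel from this difference). In that comparison 55.4% of all tested genes were called, so the chaperones' share was below the background. Libraries of day 7 and day 3 did not overlap for 3459 higher and 5375 lower of the 13718 tested genes. The response of Hspa8 was 1.12 higher on the log2 scale at day 7 than at day 3 (limma adjusted p = 0.00302), with each day 7 library above each day 3 library. That of Hspd1 was 1.11 higher (limma adjusted p = 0.00229), again without overlap. The difference was -3.76 for Hspb1 (limma adjusted p = 0.000189) and -0.84 for Hspb8 (limma adjusted p = 0.00633), both with each day 7 library below each day 3 library. These calls were made in all alternatives in which the gene was tested, 21 for Hspa8, Hspb1 and Hspd1 and 20 for Hspb8. The 2-fold minimum is not among these alternatives, and Hspb8 fell short of it (1.79-fold). At the same time the 8 proximal tubule markers were all higher at day 7 than at day 3, and the 4 tested neutrophil markers all lower. Of all tested genes, 21.7% were called higher and 33.7% lower. The part of the marker changes in the chaperone differences was not tested.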

How the results depend on the processing

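Of 625 values of single results under other settings, 567 kept their direction and their side of the threshold, 16 became called, 17 lost the call, 24 changed sign, all of them uncalled with all libraries, and 1, the number of members with the motif, moved. The calls of Hspb1, Hsp90aa1 and Hspa8 at day 3, of Hspd1 at day 7, and of Hspa8, Hspb1 and Hspd1 at day 7 against day 3 were kept in all 21 alternatives.

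Leaving out 1 library gave between 7106 and 8221 genes and between 3 and 6 members called at day 3, the 6 without sham library 3. At day 7 against sham it gave between 2470 and 4719 genes and between 1 and 3 members, the 1 without sham library 2. At day 7 against day 3 it gave between 6267 and 7901 genes and between 4 and 7 members, the 7 without sham library 3. A filter at 5 FPKM left 5104 genes called at day 3 and 4973 at day 7 against day 3, with fewer genes tested. A 2-fold minimum left 3631 genes at day 3, 564 at day 7 and 3279 between them. Removal of GC content and length trends left 856 genes and 1 member (Hspd1) at day 7 against sham, and the cause was not tested.

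Sign changes under median-of-ratios scaling were -0.15 for Hspa1b and -0.073 for Hspd1 at day 3 and -0.10 for Hspa8 at day 7 against sham. Quantile normalization gave -0.055 for Hspb8 at day 3. Removal of GC content and length trends gave -0.21 for Hspa8 at day 7 against sham and -0.021 for Dnajb1 at day 7 against day 3. Leaving out 1 library at a time gave log2 fold changes at day 3 between -0.23 and 1.24 for Hspa1a, -0.29 and 0.87 for Hspa1b, -0.63 and 0.15 for Dnajb1, -0.64 and 0.22 for Hsph1, and -0.0080 and 0.49 for Hspd1. At day 7 against sham they lay between -1.11 and 0.36 for Hspa1a, -1.07 and 0.083 for Hspa1b, -0.18 and 0.29 for Hspa8, -0.50 and 0.0015 for Hsp90ab1, and -0.62 and 0.16 for Dnajb1, and at day 7 against day 3 between -0.17 and 0.13 for Dnajb1. The 3-repeat motif was in windows of 1 of 7 members, against 5 for the pair.

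The replicate numbers were not taken as pairs. Correlations of deviations between libraries of the same number ran from -0.01 to 0.14 for day 3 with sham and from -0.01 to 0.24 for day 7 with sham. For day 7 with day 3 they ran from -0.05 to 0.03. Such values cannot decide whether libraries of the same number were handled together. With the replicate block, 8212, 3885 and 7540 genes and 3, 2 and 5 members were called in the 3 comparisons, where Hspb8 at day 7 against sham lost its call (limma adjusted p = 0.0841) and Hsph1 at day 7 against day 3 gained one (0.0381). With no counts, depth limits could not be given.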
